A study of Mus musculus with 7 samples.

Results

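The genes described here encode the subunits of the mitochondrial respiratory chain and ATP synthase, in whole shoulder joints of mice after rotator cuff repair. They were chosen by gene symbol (the mitochondrial genes of complexes I, III, IV and V, and the nuclear Nduf, Sdh, Uqcr, Cyc1, Cox4 to Cox8 and Atp5 genes, without names marked as pseudogenes) and by a level of at least 1 CPM (a gene's counts scaled to the library's total over all shared genes) averaged over the 7 libraries. Of 115 identifiers with such a symbol among 56854 shared by all libraries, 104 met this level, 92 of the nuclear and 12 of the mitochondrial genome. The symbols also took in 8 assembly factors of complex I (Ndufaf1 to Ndufaf8), Ndufa4l2, a paralogue of the subunit Ndufa4, and Cox7a2l, a factor of respiratory supercomplexes. Ndufa4 and Ndufa4l2 are described with complex IV.

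RNA was taken 2 weeks after the left supraspinatus tendon had been repaired in 7 mice, with 1 library per mouse. The mice were wild type (n = 3) or Tnc-/- (n = 4), which lack tenascin C, a matrix glycoprotein of healing tendon, and all of them had the repair, so there was no unoperated group. Libraries were made from poly(A)-selected RNA. Age, strain and the deleted part of Tnc are not given in the sources used here. The question put by the design is which genes differ between the genotypes at this time of healing.

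The respiratory chain passes electrons from NADH through complex I, or from succinate through complex II, to ubiquinone, and then through complex III, cytochrome c and complex IV to oxygen, while protons are pumped across the inner mitochondrial membrane. Complex V, the ATP synthase, uses the proton gradient to make ATP. All complexes but II combine subunits of both genomes, and muscle fibres, which a whole shoulder contains, are rich in them.

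The libraries held 13462535 to 18503579 counts in shared genes in the wild type and 19249441 to 28189752 in Tnc-/-. Tnc itself stood at 440, 326 and 371 CPM in the wild type and at 32.0, 35.7, 37.0 and 50.2 CPM in Tnc-/- (here and below in the order of libraries 1 to 3 and 1 to 4), and since the deleted part is not known, reads outside it check nothing. The wild-type files listed 56980 identifiers and the Tnc-/- files 56941, so the genotypes were counted in different runs. For every value given here, the counting run cannot be told apart from the genotype. The 2026 genes of smell and pheromone receptors, which serve as a sign of background reads in a joint, together reached 1564 and 1113 CPM in libraries 2 and 3 of the wild type, against 89.8 CPM in library 1 and 33.3 to 41.5 CPM in Tnc-/-. The sum was thus higher in every wild-type library than in every Tnc-/- library. A fit with it as a covariate, as used below, cannot cleanly separate background from genotype. Of 5 tendon markers 4 were present in all libraries and Scx, the defining transcription factor, was at 0 in all 7; their sum was 2404 to 4068 CPM, and that of 4 cartilage markers, all present, 1121 to 3053 CPM. In bulk tissue, fewer cells of a type and less RNA per cell cannot be told apart.

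Most nuclear members lay slightly above the wild type in Tnc-/- and few passed the test. Of the 104 members, 15 were called at an adjusted p under 0.05 (edgeR quasi-likelihood test), which is 14.4%, against 29% of all 17791 tested genes. All 7 members called higher were nuclear, where 10.3% of tested genes were called higher. The 8 called lower, where 18.7% of tested genes were called lower, were 4 nuclear genes and 4 of the mitochondrial genome. Of these 8, Ndufb8, Cox7b2, Atp5o and mt-Nd4l had means under 1 CPM in Tnc-/- (0, 0.106, 0.262 and 0.518 CPM) and became members only through the wild type (44.4, 5.96, 5.0 and 3.03 CPM), so the rule itself required them to be lower in Tnc-/-. The share of members called was below that of the tested genes in this fit, but it was above it without wild-type library 1 (68.3 against 64.2%), with the receptors' sum as a covariate (3.85 against 2.23%) and without wild-type libraries 2 and 3 (8.65 against 4.45%). In the fit with all libraries, 36 members, 34.6%, had an unadjusted p under 0.05, against 42.3% of all tested genes. All 104 passed the filter on low counts.

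The calls of higher members depended on the tool, the scaling and single libraries. All 7 were called with DESeq2 and Benjamini-Hochberg adjustment (11 called higher), with no filter on low counts (11 called higher) and with scaling factors computed without mitochondrial genes (7 called higher). Scaling by library totals left 1 called higher, Uqcrb, and DESeq2 size factors in edgeR left 3, Ndufb3, Uqcrb and Cox6b2. All 7 were lost with limma voom, with DESeq2 and Bonferroni adjustment, with the covariate, among genes of at most 10 kb and with a replicate block. They were also lost without wild-type library 3, without Tnc-/- library 2 or without Tnc-/- library 3. Calls fell among all tested genes in these fits as well. The shares called, in the order given, were 5.64, 9.29, 2.23, 13.5, 9.74, 12.3, 17.6 and 14.5%, against 29% in the edgeR fit given first. Of the 7 fits that each left out 1 library, Uqcrb was called in 4, Ndufb3 in 3, Cox5b, Cox6a1 and Cox6b2 in 2, and Sdhd and Cyc1 in 1, the one without wild-type library 1. Of the members called lower, mt-Co2, mt-Co3, Ndufb8 and Cox7b2 were called in all 7, mt-Atp6 in 3, mt-Nd4l and Cox4i2 in 2, and Atp5o in 1 of the 6 that could test it.

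The median log2 fold change, Tnc-/- over wild type, was 0.34 over the 92 nuclear members and -0.28 over the 12 mitochondrial ones, beside a median of all tested genes at -9.0e-04. Nuclear respiratory genes are mostly short, and short genes as a whole lay above the median. For the 61 nuclear members spanning at most 10 kb the median was 0.36, against 0.29 for the 4632 tested genes of that span. For the 24 members of 10 to 30 kb it was 0.25 against 0.15, and for the 7 members over 30 kb it was -0.01 against -0.35. The part of gene span in the members' values was not tested beyond this. The fold changes are on TMM-scaled counts, and scaling by library totals in place of TMM put the median of all tested genes at -0.22 and that of the nuclear members at 0.12.

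**Figure D1:**
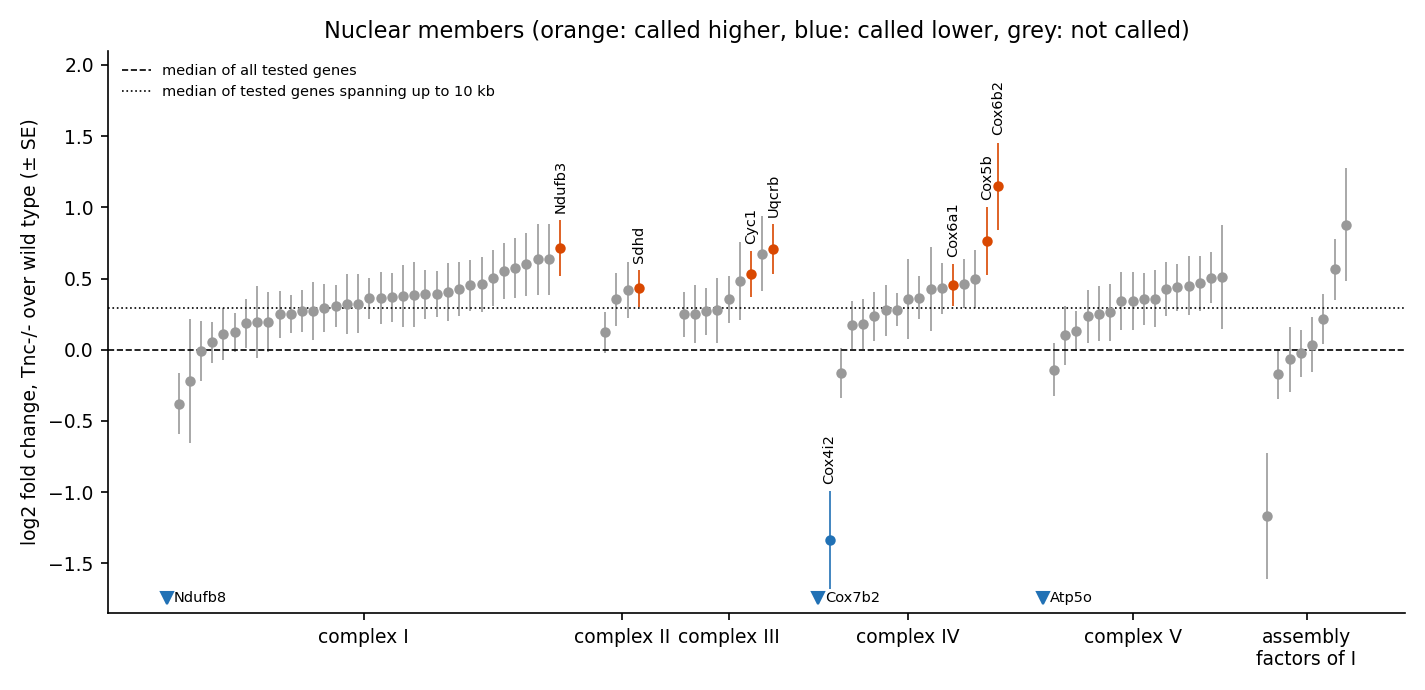
Log2 fold change (Tnc-/- over wild type, edgeR, TMM-scaled) of the nuclear members on the y axis, ordered within each complex on the x axis; bars are standard errors, and triangles at the lower edge mark Ndufb8, Cox7b2 and Atp5o, which lie below the axis. Most points lie between the median of all tested genes and 0.72, with 7 called higher (orange) and 4 called lower (blue); Cox7a2l, at 0.17, is not drawn.

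Summed over the nuclear members, the level was 15740, 15988 and 12356 CPM in the wild type and 14384, 18333, 15873 and 14987 CPM in Tnc-/-. The groups overlapped, with wild-type library 3 lowest and Tnc-/- library 2 highest. That order was shared widely: Tnc-/- library 2 was the highest of the 7 for 54 of the 92 nuclear members, and wild-type library 3 the lowest for 62. The coefficient of variation over libraries had a median of 18% among the wild type and 12.3% among Tnc-/-. The means were 14695 ± 2029 (SD, n = 3) and 15894 ± 1737 (SD, n = 4) CPM, a ratio of 1.08.

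The 12 mitochondrial members summed to 69437, 54120 and 64168 CPM in the wild type and 49632, 61928, 52350 and 40402 CPM in Tnc-/-. These groups overlapped as well, with Tnc-/- library 4 lowest, at a ratio of means of 0.816. The mitochondrial sum was 4.41, 3.39 and 5.19 times the nuclear sum in the wild type and 3.45, 3.38, 3.30 and 2.70 times in Tnc-/-. Wild-type library 2 lay between Tnc-/- libraries 1 and 2 by this ratio, so the genotypes were not separated.

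**Figure D2:**
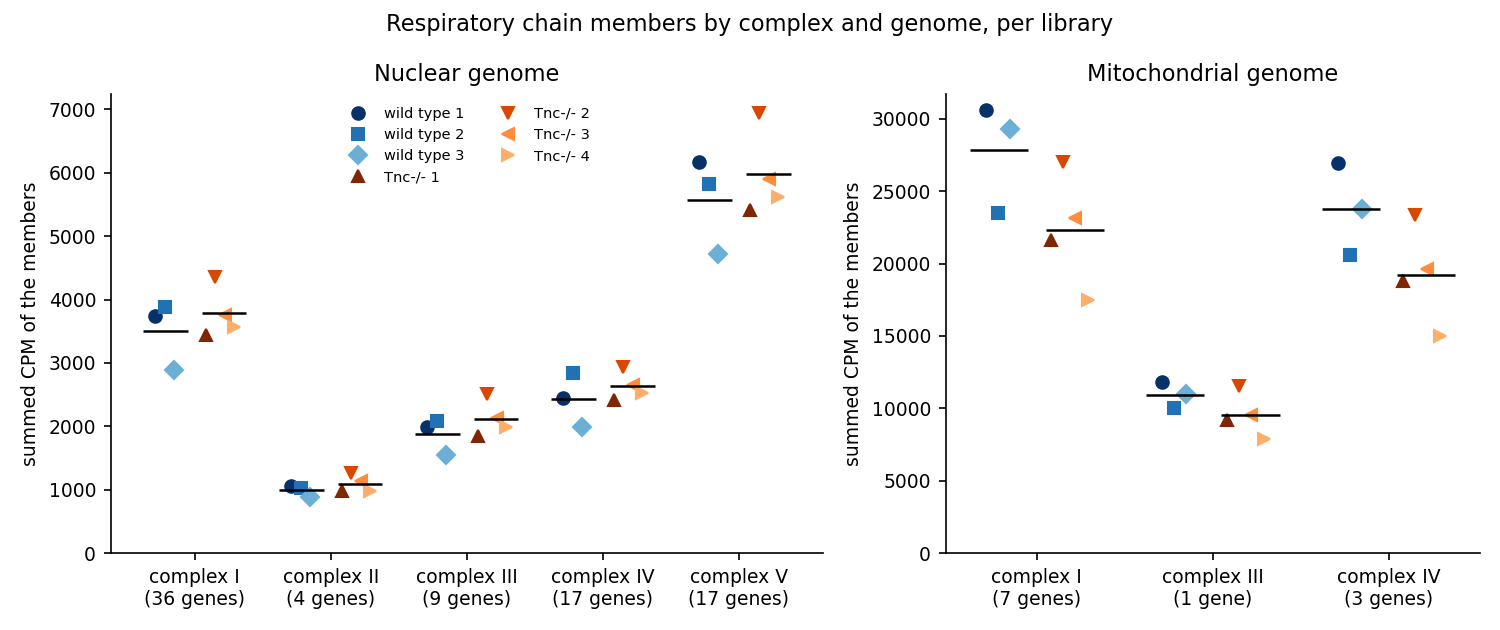
Summed CPM (y axis) of the members of each complex (x axis), nuclear genome left and mitochondrial genome right, 1 point per library and a line at the mean of each genotype; mt-Atp6, the 1 mitochondrial member of complex V, is too low for this axis and is given in the text. In every complex shown the libraries of the genotypes overlap, and Tnc-/- library 2 is the highest point in all nuclear panels.

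Among the mitochondrial genes the genotypes differed in a subset. The genome encodes core subunits of complexes I (mt-Nd1 to mt-Nd6 and mt-Nd4l) and III (mt-Cytb, cytochrome b). It also encodes those of IV (mt-Co1 to mt-Co3, whose first 2 carry the metal centres) and V (mt-Atp6, part of the proton channel). The genes are transcribed as long precursors that are cut into shorter messengers. Called lower were mt-Co2, mt-Co3, mt-Atp6 and mt-Nd4l, 4 of 12, which is 33.3% against 18.7% of all tested genes called lower. Of these, mt-Nd4l is a member only through the wild type, so the rule itself required it to be lower and it adds nothing to this comparison.

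mt-Co2 stood at 283, 247 and 265 CPM in the wild type and at 88.4, 115, 89.6 and 66.8 CPM in Tnc-/-. Every Tnc-/- library was far below every wild-type library, and the Tnc-/- mean was 33.9% of that of the wild type. mt-Co2 fell by 1.34 on the log2 scale (SE 0.19, adjusted p = 0.0067). Groups that do not overlap in CPM were seen for 34.4% of all tested genes, 24.1% with Tnc-/- lower.

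mt-Co3 showed the same order of groups. Its levels were 172, 110 and 146 CPM in the wild type and 54.8, 61.8, 45.3 and 38.2 CPM in Tnc-/-, a log2 fold change of -1.3 (SE 0.22, adjusted p = 0.00716). mt-Atp6 stood at 67.1, 40.6 and 61.7 CPM against 29.2, 32.7, 25.0 and 22.8 CPM, a log2 fold change of -0.83 (SE 0.22, adjusted p = 0.0229). The groups did not overlap for either gene. mt-Nd4l, the smallest of the 12 by length, was near the lower limit of the rule at 3.78, 3.05 and 2.27 CPM against 0.284, 0.717, 0.831 and 0.239 CPM, with a log2 fold change of -2.34 (SE 0.64, adjusted p = 0.0264).

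The other 8 mitochondrial genes were not called. mt-Co1, the most abundant, stood at 26459, 20205 and 23345 CPM in the wild type and 18635, 23176, 19476 and 14903 CPM in Tnc-/-, which overlap, with a log2 fold change of -0.08 (SE 0.25, adjusted p = 0.837). mt-Cytb was at 11847, 9993 and 11022 CPM against 9185, 11530, 9553 and 7885 CPM, a log2 fold change of 0.02. For mt-Nd1, mt-Nd2, mt-Nd4, mt-Nd5 and mt-Nd6 the log2 fold changes ran from -0.30 to 0.02 with adjusted p from 0.386 to 0.994. mt-Nd3, at 7.46, 5.05 and 6.06 CPM against 3.90, 5.79, 4.52 and 3.49 CPM, had a log2 fold change of -0.27 (SE 0.38, adjusted p = 0.622).

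The genes that were called have a second property in common. The mouse nuclear genome holds stretches copied from mitochondrial DNA, and in the GENCODE M21 transcripts (assembly GRCm38) 5 mitochondrial members recur almost whole in a transcript annotated on a nuclear chromosome. Of all 100-base windows, 99.5% of those in mt-Co2 were found in such a transcript, 99.9% in mt-Co3, 99.5% in mt-Atp6, 97.6% in mt-Nd3 and 98.5% in mt-Nd4l. Aligned base for base, mt-Co2 had no mismatch over 681 of its 684 bases to Gm28661, mt-Co3 none over 783 of 784 to Gm28437, mt-Atp6 none over 678 of 681 to Gm10925, mt-Nd3 none over 342 of 348 to Gm28438 and mt-Nd4l none over 294 of 297 to Gm10222. In the other 7 members the share of such windows was 60.8% in mt-Nd4, 30.8% in mt-Co1, 3.2% in mt-Nd2 and 0% in mt-Nd1, mt-Nd5, mt-Nd6 and mt-Cytb.

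The gene mt-Nd4l and the edge of the copied stretch in mt-Co1 are shown, because they let a reader see which reads cannot be placed by sequence. In both, lower case marks bases that are the same in the nuclear transcript. Capitals in mt-Nd4l mark the bases beyond the aligned part, and capitals in mt-Co1 mark the bases before the aligned part and the single mismatch to Gm29216, A1066T (mt-Co1 has A at base 1066 and the copy T, counted from 1 at the first base of the gene). Both are read 5′ to 3′ from the GENCODE M21 transcripts.

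mt-Nd4l, bases 1 to 297: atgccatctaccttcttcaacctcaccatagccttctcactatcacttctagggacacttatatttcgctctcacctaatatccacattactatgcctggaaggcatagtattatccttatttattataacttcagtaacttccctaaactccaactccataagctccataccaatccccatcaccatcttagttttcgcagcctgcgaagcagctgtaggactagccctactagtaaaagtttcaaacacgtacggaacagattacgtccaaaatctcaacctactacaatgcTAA
mt-Co1, bases 1018 to 1107: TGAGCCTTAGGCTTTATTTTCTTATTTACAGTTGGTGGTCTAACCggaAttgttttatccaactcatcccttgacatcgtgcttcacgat

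Among the members, the copied genes stood apart in level. Per kilobase of exon, mt-Co2 was at 388 CPM and mt-Co3 at 182 CPM in the wild type, against 15104 CPM for mt-Co1, 9575 CPM for mt-Cytb and 2292 CPM for mt-Nd6. Over the 7 libraries the copied genes ran from 5.37 to 241 CPM per kilobase and the other 7 from 1899 to 13518. mt-Atp8, which was not a member, had 0% of its windows in a nuclear transcript but only 1 count in all libraries. A low level was therefore not limited to copied genes. The median log2 fold change was -1.3 over the 5 copied genes, of which 4 were called lower (mt-Nd4l is a member only through the wild type), and -0.08 over the other 7, of which 0 were called (edgeR, DESeq2 and limma voom alike, with 0 at an unadjusted p under 0.05). The fifth copied gene, mt-Nd3, was at -0.27, inside the range of the other 7 from -0.30 to 0.02. How reads that align equally well to a gene and its copy were counted is not given in the sources used here, and its part in the difference was not tested.

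**Figure D3:**
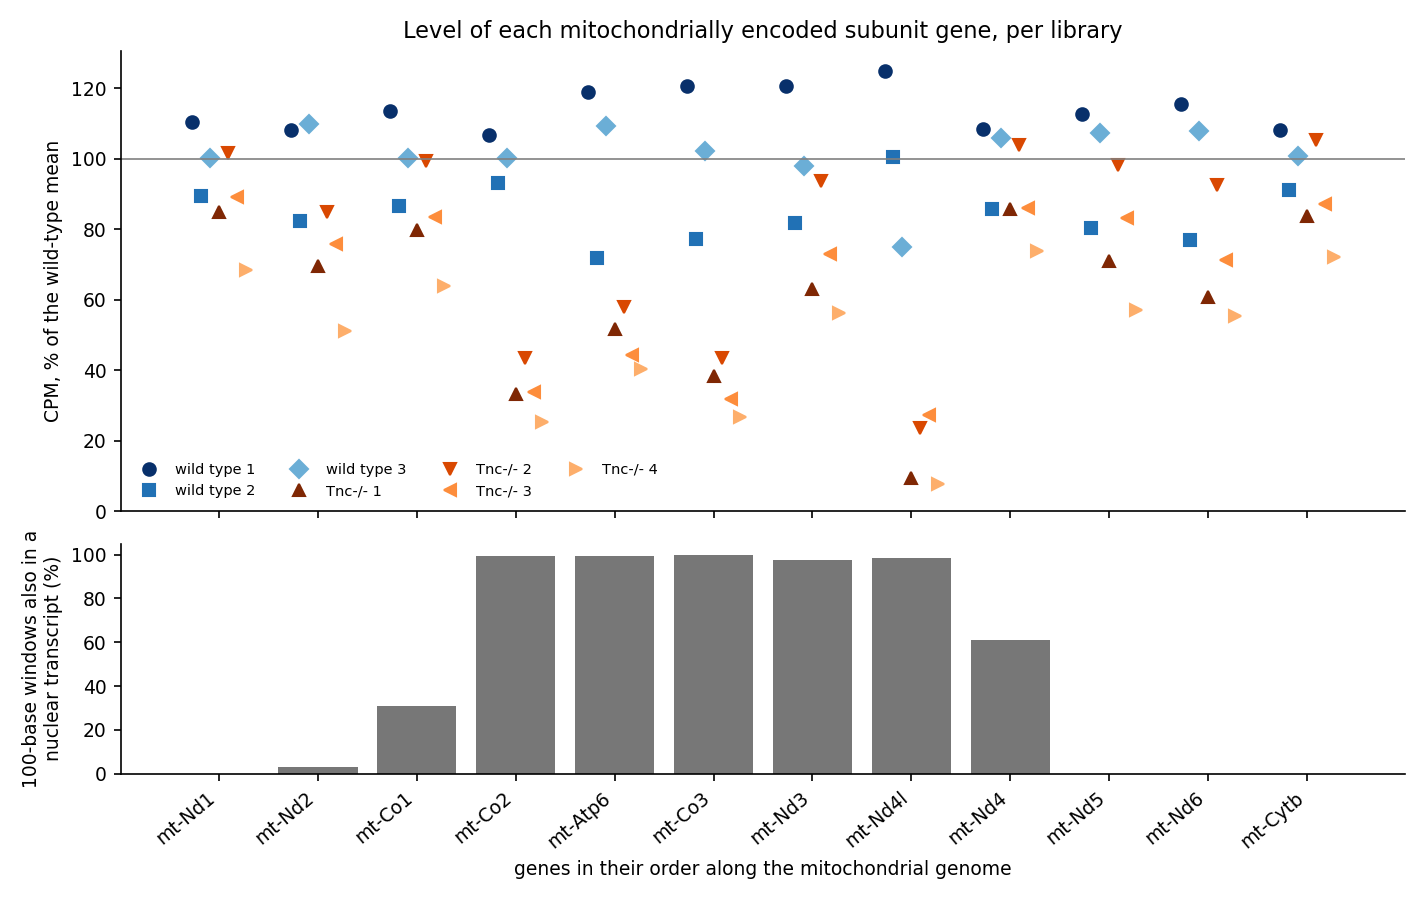
Upper plot: CPM of each mitochondrial gene as a percentage of its wild-type mean (y axis), 1 point per library, with genes in their order along the mitochondrial genome (x axis). Lower plot: percentage of the 100-base windows of each gene that recur in a transcript annotated on a nuclear chromosome. The 4 Tnc-/- libraries lie below all wild-type libraries for mt-Co2, mt-Atp6, mt-Co3 and mt-Nd4l, and overlap with them for the other 8 genes.

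Ratios inside a library do not depend on its scaling, and they separated the genotypes for the called genes and for 2 others. mt-Co2 was 1.07, 1.22 and 1.14% of mt-Co1 in the wild type and 0.474, 0.498, 0.460 and 0.448% in Tnc-/-. mt-Co3 was 0.651, 0.545 and 0.624% of mt-Co1 against 0.294, 0.267, 0.233 and 0.256%, and mt-Atp6 0.253, 0.201 and 0.264% against 0.156, 0.141, 0.128 and 0.153%. None of these ratios overlapped between the genotypes, nor did that of mt-Nd4l to mt-Nd4. Among the genes not copied over their whole length, mt-Cytb was 44.8, 49.5 and 47.2% of mt-Co1 in the wild type and 49.3, 49.8, 49.1 and 52.9% in Tnc-/-, which overlap. mt-Nd2 was 27.9, 27.7 and 32.1% of mt-Co1 against 25.4, 25.0, 26.5 and 23.4%, lower in all Tnc-/- libraries although the gene itself was not called. mt-Nd3, copied and not called, was 0.106, 0.0905 and 0.0879% of mt-Nd4 against 0.0699, 0.0855, 0.0808 and 0.0724%, also lower in all Tnc-/- libraries.

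The nuclear transcripts had counts of their own. Gm28661, the copy of mt-Co2, stood at 152, 128 and 120 CPM in the wild type and 67.2, 71.3, 72.9 and 50.2 CPM in Tnc-/-, a log2 fold change of -0.82 (SE 0.17, adjusted p = 0.0112). Gm28437, Gm10925, Gm28438 and Gm10222 had log2 fold changes of -0.43, -0.32, 0.26 and -0.57 and were not called. With each mitochondrial gene and its copy summed before the fit, an alternative added after the values were seen, mt-Co2 and mt-Co3 were still called lower, while mt-Atp6 (log2 fold change -0.56, adjusted p = 0.0864) and mt-Nd4l (-1.54, adjusted p = 0.0579) were not. Both sums still did not overlap between the genotypes: the Tnc-/- mean was 0.587 of that of the wild type for mt-Atp6 with Gm10925 and 0.296 for mt-Nd4l with Gm10222. Each sum takes in a single copy and cannot bring back reads counted for neither. This fit therefore does not show what part the copies have in the difference. mt-Co2 and mt-Co3 were called lower under all 20 alternatives tried for them, which included leaving out each library.

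Complex I, the NADH dehydrogenase, has the most members. Of its 36 nuclear members 1 was called higher and 1 lower, with a median log2 fold change of 0.34. Their sum was 3744, 3876 and 2888 CPM in the wild type and 3442, 4361, 3755 and 3567 CPM in Tnc-/-, which overlap. Ndufb3, a small subunit of the membrane arm, rose: it stood at 36.7, 57.9 and 33.7 CPM in the wild type and at 52.7, 60.2, 67.0 and 60.1 CPM in Tnc-/-, a log2 fold change of 0.72 (SE 0.20, adjusted p = 0.0278). Its groups overlapped in CPM through wild-type library 2. The 7 nuclear core subunits, which hold the flavin and iron-sulfur centres, had 0 calls (edgeR, DESeq2 and limma voom; at an unadjusted p under 0.05, edgeR gave 0 and the other tools 1 each) and a median of 0.29. Of the 29 other nuclear subunits, 12 had an unadjusted p under 0.05, a share of 41.4% beside the 42.3% of all tested genes, and 2 were called.

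Ndufb8, a subunit of the membrane arm, showed the largest difference of all 104 members. It had 42.8, 61.1 and 29.2 CPM in the wild type, that is 792, 823 and 424 counts, and 0 counts in all 4 Tnc-/- libraries. Against a floor of 3 counts per Tnc-/- library the mean was at least 317-fold lower (adjusted p = 0.00122). With Ndufb8 at this bound the medians of complex I and of all nuclear members are both 0.34, as given here. The gene was called lower in all 19 alternatives that could test it. No other member was at 0 in all libraries of a genotype, and the neighbouring subunits of the arm did not share the pattern: Ndufb10 stood at 140, 166 and 96.6 CPM against 155, 201, 169 and 162 CPM.

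Genes listed at 0 in all libraries of 1 genotype were also seen among other mitochondrial genes, in the other direction. Cox17, a copper chaperone for complex IV, was at 0 in all wild-type libraries and at 40.1 to 44.8 CPM in Tnc-/-, and Mrpl53, a mitochondrial ribosomal protein, at 0 and at 40.3 to 45.2 CPM. In these 3 genes the zeros follow the counting run as well as the genotype, and these cannot be told apart. In GENCODE M21 the exons of no member, 0 of 104, overlapped an identifier listed in 1 of the runs only. The annotation release the authors used is not given in the sources used here.

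The exons of 41 members overlapped those of another listed gene in GENCODE M21, 11 of them by more than 10% of their exon bases: Atp5j, Atp5o, Cox5a, Ndufa2, Ndufaf2, Ndufb1, Ndufb11, Ndufb5, Ndufb6, Ndufb9 and Uqcrc2. The strand setting of the counting is not given in the sources used here, so the levels of these genes are uncertain. Among them was Ndufb1, 1 of 4 nuclear members of complex I with a negative log2 fold change, at 69.3, 91.1 and 50.5 CPM in the wild type and 38.2, 53.0, 50.9 and 43.8 CPM in Tnc-/- (log2 fold change -0.38, adjusted p = 0.216).

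The 8 Ndufaf assembly factors help to build complex I and are not part of it. None was called (0 of 8 with edgeR, 2 at an unadjusted p under 0.05; 1 with DESeq2, Ndufaf2), and their median log2 fold change was 0.0047. Ndufaf3, at 18.5, 14.4 and 13.9 CPM in the wild type and 24.3, 17.2, 18.4 and 20.1 CPM in Tnc-/-, had a log2 fold change of 0.56 (SE 0.21, adjusted p = 0.0772). Ndufaf2 stood at 8.48, 46.1 and 32.2 CPM against 9.44, 13.5, 9.82 and 10.2 CPM (log2 fold change -1.17, SE 0.44, adjusted p = 0.0778). Its 2 high values were those of wild-type libraries 2 and 3, in which the smell and pheromone receptors were also high, and wild-type library 1 lay below all Tnc-/- libraries.

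Complex II, the succinate dehydrogenase, is wholly nuclear and shared with the citric acid cycle. All 4 subunits had a positive log2 fold change and 1 was called. Sdhd, a membrane anchor, rose from 133, 153 and 136 CPM in the wild type to 148, 176, 173 and 154 CPM in Tnc-/- (log2 fold change 0.43, SE 0.13, adjusted p = 0.0379), with the lowest Tnc-/- library below wild-type library 2. The other anchor, Sdhc, was at 168, 209 and 170 CPM against 153, 190, 175 and 162 CPM, a log2 fold change of 0.12 (adjusted p = 0.548). Sdha, the flavoprotein, stood at 454, 397 and 339 CPM against 398, 533, 493 and 406 CPM (0.42 on the log2 scale, adjusted p = 0.138), and Sdhb, the iron-sulfur subunit, at 305, 269 and 241 CPM against 276, 369, 297 and 255 CPM (0.35, adjusted p = 0.185). Both catalytic subunits were highest in Tnc-/- library 2.

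Complex III, the cytochrome bc1 complex, held 2 of the 4 members whose groups did not overlap with Tnc-/- higher, a pattern of 10.4% of all tested genes. Uqcrb, a ubiquinone-binding subunit, rose from 62.4, 69.9 and 53.2 CPM in the wild type to 72.6, 103, 92.4 and 78.4 CPM in Tnc-/- (log2 fold change 0.71, SE 0.17, adjusted p = 0.0184). Cyc1, cytochrome c1, rose from 254, 290 and 232 CPM to 293, 375, 325 and 291 CPM (0.53, SE 0.16, adjusted p = 0.0388). In both genes the lowest Tnc-/- library was only just above the highest wild-type library. The other 7 nuclear members were not called by edgeR (DESeq2 also called Uqcrq higher), with log2 fold changes from 0.25 to 0.67. Uqcrfs1, the Rieske iron-sulfur protein, stood at 270, 294 and 243 CPM against 242, 327, 293 and 251 CPM (0.27, adjusted p = 0.252).

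Complex IV, cytochrome c oxidase, had 3 of 17 nuclear members called higher and 2 lower, beside mt-Co2 and mt-Co3. For the nuclear members that is 29.4%, near the 29% of all tested genes. Cox5b, a zinc-binding subunit, rose from 146, 175 and 88.3 CPM to 169, 214, 214 and 201 CPM (log2 fold change 0.76, SE 0.24, adjusted p = 0.0435), with Tnc-/- library 1 below wild-type library 2. Cox6a1, the isoform of subunit VIa found in most tissues, rose from 175, 211 and 158 CPM to 209, 201, 220 and 224 CPM (0.45, SE 0.14, adjusted p = 0.045), with 2 Tnc-/- libraries below wild-type library 2. Cox6b2, the isoform of subunit VIb known from testis, rose from 4.22, 4.98 and 5.92 CPM to 9.90, 8.86, 7.84 and 11.5 CPM (1.15, SE 0.31, adjusted p = 0.0244). For Cox6b2 all Tnc-/- libraries were above all wild-type libraries, at a low level in both.

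The 2 nuclear members called lower in complex IV were highest in wild-type libraries 2 and 3. Cox7b2, known from testis, stood at 1.3, 9.43 and 7.16 CPM in the wild type, that is 24, 127 and 104 counts, and at 0.0709, 0.0512, 0.208 and 0.0955 CPM in Tnc-/- (log2 fold change -5.49, SE 0.83, adjusted p = 0.0067). Cox4i2, the isoform of subunit IV known from lung and from low oxygen, stood at 13.5, 38.6 and 31.9 CPM against 7.27, 10.5, 7.43 and 11.9 CPM (-1.34, SE 0.34, adjusted p = 0.0213). These are the libraries in which smell and pheromone receptors stood out. The receptors' sum also separates the genotypes, so a call lost with it as a covariate cannot be put down to background. In that fit 2.23% of all tested genes were called. With the receptors' sum as a covariate the log2 fold change of Cox7b2 was -2.67 (adjusted p = 0.113) and that of Cox4i2 -0.05 (adjusted p = 0.965). Without wild-type libraries 2 and 3, which leaves 1 wild-type library assumed to vary like the others, they were -3.46 (adjusted p = 0.073) and -0.42 (adjusted p = 0.428).

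Complex V, the ATP synthase, had the highest summed nuclear CPM of the 5 complexes and 1 call of 17 (edgeR; DESeq2 also called Atp5pb and Atp5j higher). Atp5b, the catalytic beta subunit, and Atp5a1, the alpha subunit, were the most abundant nuclear members by CPM, with means over the 7 libraries of 1541 and 1297 CPM, and adjusted p of 0.235 and 0.355. Atp5pb, a subunit of the peripheral stalk, was at 353, 335 and 279 CPM in the wild type and 380, 471, 372 and 354 CPM in Tnc-/-: the groups did not overlap, by a narrow margin, but the adjusted p was 0.0628 with edgeR (log2 fold change 0.51, SE 0.18) and 0.0213 with DESeq2. The call was the Atp5o locus with identifier ENSMUSG00000116933, at 0.324, 6.61 and 8.05 CPM in the wild type and 0.0709, 0.666, 0.312 and 0 CPM in Tnc-/- (log2 fold change -3.97, SE 1.25, adjusted p = 0.0435). It was high in wild-type libraries 2 and 3, with library 1 inside the range of Tnc-/-, and its log2 fold change was 1.07 (adjusted p = 0.782) with the receptors' sum as a covariate. The 3 genes of subunit c, Atp5g1, Atp5g2 and Atp5g3, which encode 1 mature protein, had log2 fold changes of 0.34, 0.13 and 0.24 and were not called.

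Several subunits exist as paralogues of different tissues, and the mix of them can be read as a ratio inside each library. Cox7a1, the form of heart and skeletal muscle, was 85.2, 131 and 60.4% of Cox7a2 in the wild type and 75.0, 121, 112 and 99.96% in Tnc-/-. Cox8b, also a muscle form, was 100.04, 180 and 124% of Cox8a against 96.5, 184, 122 and 102%. Neither ratio separated the genotypes, and the spread within each was larger than the difference of the means. Cox4i2 was 3.44, 10.6 and 10.8% of Cox4i1 against 2.25, 2.81, 2.22 and 3.61%, with wild-type library 1 inside the range of Tnc-/-. Cox6b2 was 2.02, 1.73 and 3.57% of Cox6b1 against 3.97, 2.87, 3.02 and 4.62%, with wild-type library 3 inside that range. Ndufa4l2 was 16.8, 18.8 and 28.1% of Ndufa4 against 18.7, 14.2, 19.9 and 27.8%. Cox6a2, the muscle form of subunit VIa, had 0 counts in all 7 libraries although muscle messengers were abundant, so the ratio to Cox6a1 could not be formed.

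**Figure D4:**
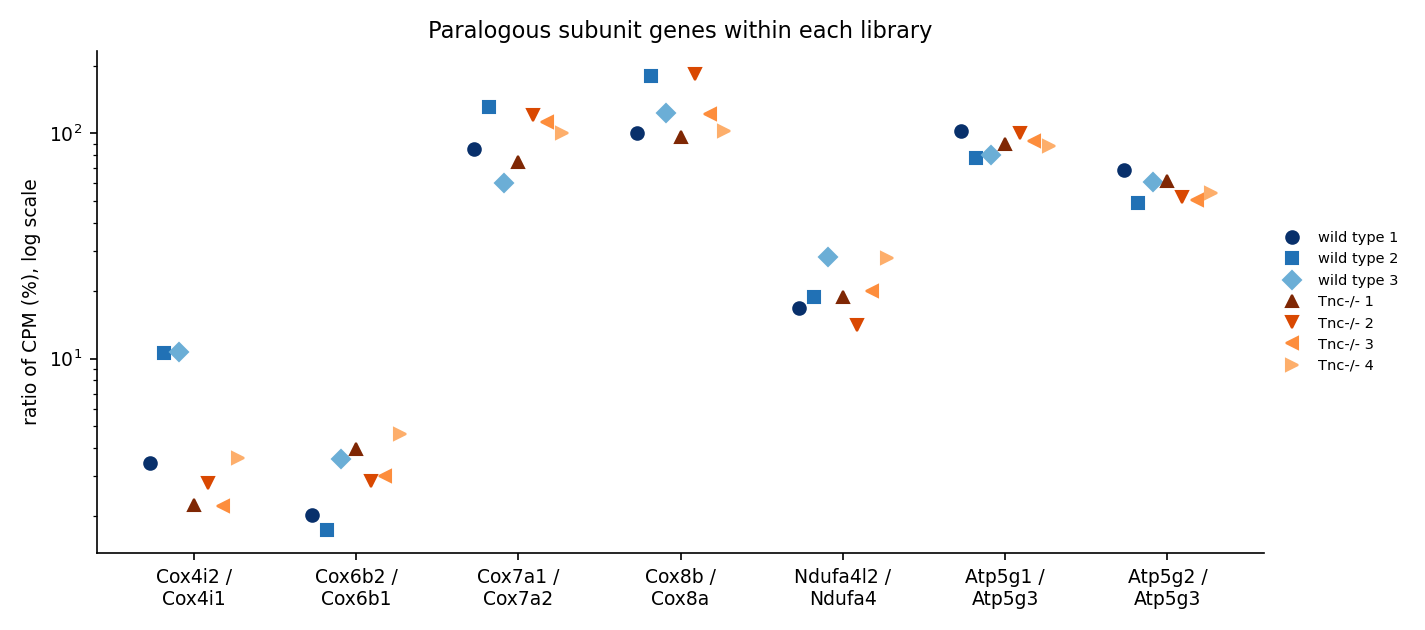
Ratio of CPM between paralogous subunit genes in percent (y axis, log scale) for each pair (x axis), 1 point per library. The libraries of the genotypes overlap for all 7 pairs, and Cox4i2 relative to Cox4i1 is high in wild-type libraries 2 and 3, at 10.6 and 10.8%.

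Of the 11 identifiers with a matching symbol that fell under 1 CPM, 6 had 0 counts in all libraries: Cox6a2, Ndufa13, Ndufa11b, Ndufb4b, Ndufb4c and Ndufs6b. Ndufa13 encodes a subunit of complex I that cells with a respiratory chain use, so its 0 is not read here as absence. Why it was at 0 was not tested. The closest under the limit was a second Atp5o identifier, ENSMUSG00000022956, at a mean of 0.77 CPM, and the closest above were mt-Nd4l at 1.60, the Atp5o member at 2.29 and Cox7b2 at 2.62 CPM. The others were Cox6c2, Cox8c, Ndufb11b (8, 8 and 6 counts in the wild type, 0 in all Tnc-/- libraries) and mt-Atp8 (1 count in all).

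Per kilobase of exon, levels of the nuclear subunit genes differed widely within each complex, although many of these proteins are present once per complex. Over the 7 libraries the 82 nuclear subunit genes had a median of 88.0 CPM per kilobase, from 1.09 (Ndufb2) to 441 (Cox8b). The medians were 59.1 in complex I, 115 in complex II, 153 in complex III, 135 in complex IV and 88.6 in complex V, and 9.92 for the Ndufaf factors. Exon lengths were unions over all transcripts of GENCODE M21, which lowers the value of genes with long rare transcripts.

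Promoters of respiratory genes are known for sites of NRF1, of ETS factors such as GABPA, of ESRRA and of YY1. Of the 92 nuclear members, 76 matched a RefSeq promoter (GRCm38.p6). In the 250 bases before the start, searched on both strands, the consensus of NRF1 (spelled out in the Cox6a1 sequence given here, with any base in its middle) was present in 14, which is 18.4% against 4.23% of all 27025 genes in the table, and CCGGAAG (ETS) in 14, 18.4% against 7.83%. TCAAGGTCA (ESRRA) and AAGATGGCG (YY1) were each present in 1, which is 1.32% against 0.422% and 0.71%. Of the members called higher, Sdhd and Cox6a1 had both the NRF1 and the ETS letters. A match is a run of letters and was not tested for binding. For Cox6a1 the stretch of this window without annotated exons is shown, chr5:115348982-115349129, minus strand, with its 2 NRF1 matches in capitals.

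Cox6a1, 148 bases before the first exon: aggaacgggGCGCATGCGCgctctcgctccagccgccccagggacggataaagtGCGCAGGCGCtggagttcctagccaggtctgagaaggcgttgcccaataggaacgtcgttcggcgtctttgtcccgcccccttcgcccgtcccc

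Regulators of these promoters and other genes of mitochondrial respiration were taken from lists. Of 8 regulators, Esrra, a nuclear receptor, was called higher, at 76.4, 71.5 and 58.3 CPM in the wild type and 80.5, 98.1, 103 and 84.8 CPM in Tnc-/- (log2 fold change 0.63, SE 0.17, adjusted p = 0.024). Ppargc1a, a coactivator of mitochondrial biogenesis, was called lower, at 14.7, 26.7 and 36.8 CPM against 8.90, 13.9, 11.9 and 8.74 CPM (-1.01, SE 0.30, adjusted p = 0.0355), highest in the same 2 wild-type libraries as the receptors. Nrf1 and Gabpa were not called (adjusted p = 0.109 and 0.549). DESeq2 also called 1 regulator higher and 1 lower, and limma voom 0. The edgeR calls are 25% of the 8 regulators, against 29% of all tested genes.

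Of 39 tested assembly factors beside the Ndufaf genes, 4 were called higher (Sdhaf1, Cox17, Cox14 and Higd2a) and 3 lower (Nubpl, Sdhaf3 and Cmc1), with a median of 0.22. DESeq2 gave the same counts, and limma voom 2 higher and 0 lower. The edgeR calls are 17.9% of the 39, against 29% of all tested genes. All 3 called lower were highest in wild-type libraries 2 and 3; Nubpl, for instance, stood at 7.84, 49.7 and 45.6 CPM against 5.99 to 6.88 CPM. Of 73 tested mitochondrial ribosomal proteins, 13 were called higher and 0 lower (edgeR; DESeq2 13 and 0, limma voom 1 and 0; 28 had an unadjusted p under 0.05, none of them lower), with a median of 0.304 beside the 0.294 of tested genes spanning at most 10 kb; called higher were 10.3% of all tested genes, and the 13 include Mrpl53. Of 16 tested genes of mitochondrial DNA expression, from a list of 17, 1 (Polg) was called higher (edgeR; DESeq2 called 1 higher and 1 lower, limma voom 0), and of 16 genes of the citric acid cycle and pyruvate dehydrogenase 0 were called (edgeR, DESeq2 and limma voom, with 2 at an unadjusted p under 0.05 in edgeR), with a median of 0.25. Of 10 tested carriers and partners of the chain, 1 was called, which is 10% against 29% of all tested genes. It was Slc25a4, the ADP/ATP carrier of muscle, at 1232, 1198 and 868 CPM against 1265, 1897, 1641 and 1415 CPM (0.72, SE 0.23, adjusted p = 0.0482 with edgeR). With limma voom 0 of the 10 were called.

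Markers of muscle had their lowest and highest sums in the same libraries as the nuclear members. The 14 markers of skeletal muscle, all detected, had a sum of 37648, 31724 and 30074 CPM in the wild type and 37628, 53575, 43039 and 38078 CPM in Tnc-/-. This was lowest in wild-type library 3 and highest in Tnc-/- library 2. Wild-type library 2 differed: its nuclear sum, 15988 CPM, was above the 15740 CPM of library 1, while its muscle sum was below that of library 1. Of these markers 3 were called higher (Myh4, the myosin of fast fibres, Actn3 and Ryr1) and 0 lower (edgeR, 7 at an unadjusted p under 0.05, all higher; DESeq2 8 and 0, limma voom 2 and 0), with a median of 0.65. The edgeR calls are 21.4% of the muscle markers, against 29% of all tested genes called and 10.3% called higher. The genes of the citric acid cycle and pyruvate dehydrogenase summed to 3747, 3276 and 3186 CPM against 3245, 4286, 3627 and 3096 CPM. The part of muscle content in the members' values was not tested.

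Sums of markers of some other cells differed between the genotypes in CPM. The 8 erythroid markers, of which Alas2 was at 0 in all libraries, summed to 5450 to 9492 CPM in the wild type and 12292 to 25283 CPM in Tnc-/-, and the 7 neutrophil markers to 3017 to 5672 against 5714 to 10149 CPM. Of 3 endothelial markers, all present and 0 of them called (edgeR, DESeq2 and limma voom, 0 at an unadjusted p under 0.05), the sum was 410 to 449 against 321 to 380 CPM, but on the TMM scale the median log2 fold change was -0.05. None of these 3 sums overlapped between the genotypes. With edgeR, 4 of 7 tested erythroid and 4 of 7 neutrophil markers were called higher, 57.1% each, against 10.3% of all tested genes. DESeq2 called 5 erythroid and 6 neutrophil markers higher, and limma voom 2 of each. The sum of 6 fibroblast markers did overlap (34586 to 50215 against 31651 to 52503 CPM), with 1 of the 6 called (Lum, lower, adjusted p = 0.0482 with edgeR; DESeq2 called 2 lower and limma voom 0) and log2 fold changes from -0.63 to 0.27. The sums of adipocyte, macrophage, tendon and cartilage markers overlapped. The part of these cells in the mitochondrial or nuclear sums was not tested. The 5 brown fat markers, cells also rich in mitochondria, summed to 55.3 to 106 CPM and 34.4 to 114 CPM, with Ucp1 detected in all libraries (8.36 to 67.6 CPM) and 0 of 4 tested genes called (edgeR, DESeq2 and limma voom, 0 at an unadjusted p under 0.05).

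**Figure D5:**
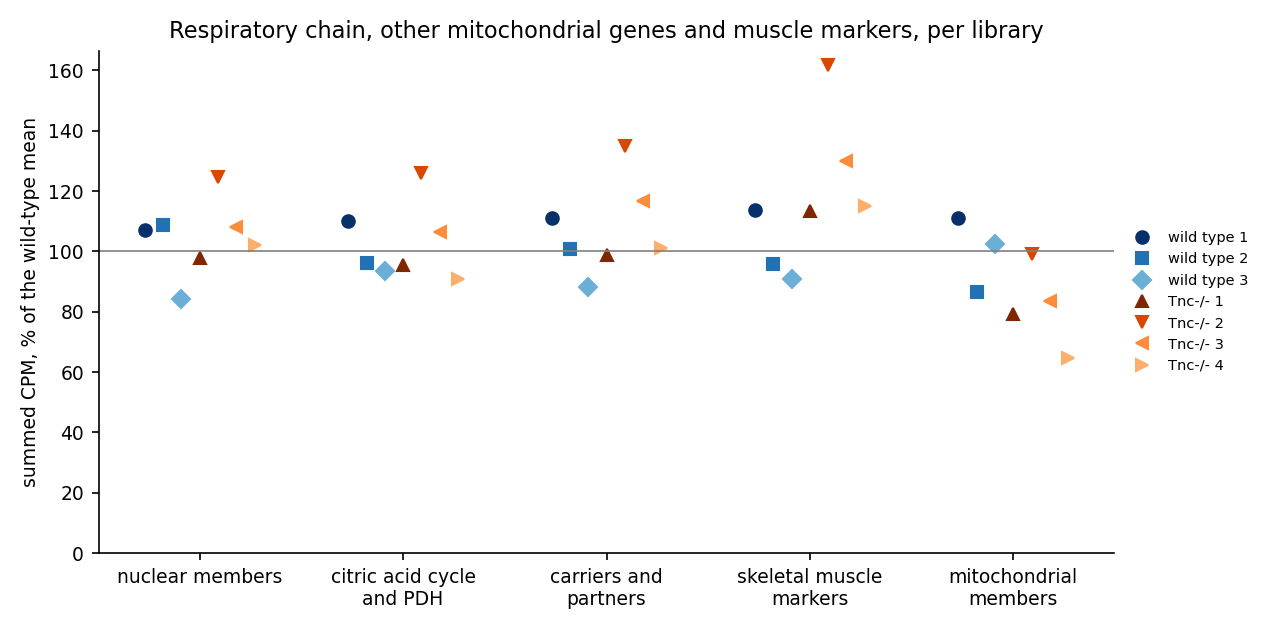
Summed CPM as a percentage of the wild-type mean (y axis) for the nuclear members, the citric acid cycle and pyruvate dehydrogenase (PDH) list, carriers and partners of the chain, skeletal muscle markers and the mitochondrial members (x axis), 1 point per library. Tnc-/- library 2 is highest in the first 4 groups, with muscle markers at 53575 CPM.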

How the data were processed

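Counts of reads per gene were deposited by the authors, 1 table per library. Per the submitters' processing notes, FastQC 0.11.9, HISAT2 2.2.1, HTSeq 2.0.2 and DESeq2 1.38.3 were used with GRCm39 (mm39); annotation release, strand setting and the handling of reads with several positions are not given in the sources used here. Rows that name no gene, present in the Tnc-/- tables, held 32.5, 31.1, 32.7 and 30.1% of reads (11.4 to 11.6% ambiguous) and were left out. CPM are counts over the total of the 56854 shared identifiers, 13462535 to 28189752 per library; intervals were not needed, and the floor of 3 counts covers counting error only.

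Genotypes were compared with edgeR 4.0.16 in R 4.3.3 (filterByExpr, TMM, robust quasi-likelihood F test) over 17791 genes, with Benjamini-Hochberg adjustment over all of them and a threshold of 0.05; the standard error is the fold change over the root of F. Alternatives were DESeq2 1.42.0, limma 3.58.1 voom, other scalings and filters, a covariate for background reads, genes of at most 10 kb, a replicate block and leaving out libraries. Numbers shared by wild-type and Tnc-/- libraries do not pair them. P-values measure the spread between these mice.

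Members and lists were chosen with earlier results of these data known. Named genes are all mitochondrial members, the 2 nuclear members of smallest p in each complex, complex II, isoform pairs, members at 0 in a genotype, the 3 called members with the largest rise and fall, and those near the limit of 1 CPM; other genes were chosen after their values were seen. Spans, exons and transcripts came from GENCODE M21 (GRCm38), which held 91.4% of the listed genes, and promoters from RefSeq (GRCm38.p6); no coordinates were carried between builds.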

Additional observations from a re-analysis of the deposited data

Results flagged for a closer look

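Of 71 values tested for a library that stands apart within the 4 Tnc-/- libraries, 2 had one, and chance gives about 1 in 20. The summed level of the 8 assembly factors of complex I was 168 CPM in Tnc-/- library 2 and 150 to 152 CPM in the other Tnc-/- libraries, a gap of 0.872 of the range, past Dixon's 95% critical value. mt-Nd1 was 36.8% of mt-Co1 in Tnc-/- library 2 and 38.2 to 38.5% in the other Tnc-/- libraries, a gap of 0.838 of the range. The wild-type group of 3 was too small for this test.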

How the results depend on the processing

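The 15 members called became 20 with DESeq2 (11 higher), 17 with no filter on low counts (11 higher), 11 with DESeq2 size factors, 13 with copies summed, 4 with DESeq2 and Bonferroni adjustment, 3 with limma voom, 9 with library totals, 7 with at least 10 counts in every library, 4 with the receptors' sum as covariate, 5 among genes of at most 10 kb and 9 without wild-type libraries 2 and 3 (added after seeing the data). mt-Co2 and mt-Co3 were called in all of these. Of all tested genes, 35.1% were called with DESeq2, 26.3% with no filter, 28.3% with DESeq2 size factors and 29% with copies summed. The share was 9.29% with Bonferroni adjustment, 5.64% with limma voom, 30.4% with library totals and 24.3% with at least 10 counts. With the covariate the share was 2.23%, and among genes of at most 10 kb it was 13.5%. Leaving out 1 library gave 4 to 71 member calls: 71 without wild-type library 1 (62 higher), 4 without wild-type library 3, 5 without Tnc-/- library 2 or 3, and 6 without Tnc-/- library 1 or 4. The share of all tested genes called moved from 29% to 64.2% without wild-type library 1, 12.3% without wild-type library 3, 16% without wild-type library 2 (where 14 members were called) and 14.5 to 17.6% without a Tnc-/- library. The cause was not tested.

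With the replicate block over libraries 1 to 3, 5 members were called (mt-Co2, mt-Co3, Ndufb8, Cox4i2 and Cox7b2). The pairing had no basis in the labels, and deviations of same-numbered libraries correlated at -0.0031, 0.0511 and -0.0403.

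The nuclear median, 0.34, was 0.12 with library totals and 0.0735 among genes of at most 10 kb, 0.141 with the covariate, 0.151 without wild-type libraries 2 and 3, and 0.19 (without wild-type library 3) to 0.54 (without wild-type library 1) with 1 library left out. The mitochondrial median, -0.28, was -0.69 with the covariate, -0.50 with library totals, -0.57 among genes of at most 10 kb, -0.56 without wild-type libraries 2 and 3, -0.172 with the replicate block and -0.43 to 0.01 with 1 library left out, its sign turning without wild-type library 1. The summed nuclear level, 0.11 on the log2 scale, was 0.33 on TMM-scaled totals and 0.0028 to 0.18 with 1 library left out; the mitochondrial level, -0.29, was -0.0782 on TMM-scaled totals and ran from -0.40 to -0.20 with 1 library left out, and the ratio of both, -0.43, from -0.58 to -0.28. Atp5o reversed to 1.07 with the covariate. Of the named genes' values, 608 kept their side of the threshold, 129 lost and 10 gained a call, and 1 called value reversed; 46 of the 608, of 14 genes and none of them called, changed sign. Depth limits mt-Nd4l, Cox7b2 and Atp5o, which had 0 to 16 counts in Tnc-/- libraries.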
